A study of Mus musculus with 4 samples.

Results

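Listed STARR-seq elements at the genes of proximal T cell receptor (TCR) signalling, Lck, Fyn, Zap70, Lat, Lcp2, Vav1, Prkcq and Rasgrp1, were examined in mouse T helper 17 (Th17) cells. An element belonged to a gene when its centre had that gene's protein-coding start (GENCODE mouse release M21) as the nearest coding transcription start site (TSS), within 100 kb. By this rule 32 of the 24232 elements in the authors' deposited table were members. They were spread over 7 of the 8 genes, because no listed element was linked to Zap70. Elements were linked by position and not by the size or sign of their fold changes, among elements that had passed the authors' threshold.

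The 4 biological replicates form 1 group of activated Th17 primary cells from C57BL/6NJ mice. Treatment lasted 3 days and consisted of interleukin-6 and antibodies to CD3e (0.25 µg/mL), CD28 (1 µg/mL), interferon-gamma and interleukin-4 (2 µg/mL). The library was transfected transiently and stayed outside the chromosomes, as an episome. All 4 replicates carry the same donor label, and age and sex are not given. STARR-seq places a genomic fragment in the transcribed part of a reporter, so that RNA holding the fragment can be set against the input plasmid. The ratio gives the level of reporter RNA relative to input, and does not measure transcription alone. The deposited table combines the replicates into 1 log2 fold change, p-value and q-value per element on mouse build mm10. Each such value below is the authors' own, no value per replicate was used here, the depth is unknown, and no SD over replicates can be given. Every listed element had a q-value under 0.01. The direction of the fold change is not stated in the sources used here. A positive value was read as more reporter RNA than input and is called higher, and a negative one is called lower. If the table was written the other way, the words swap.

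When the TCR binds antigen, the Src-family kinases Lck and Fyn phosphorylate the cytoplasmic tails of the CD3 and zeta chains, and the kinase Zap70 binds these tails and becomes active. Zap70 phosphorylates the membrane scaffold Lat and the adaptor SLP-76, the product of Lcp2, on which the signalling protein Vav1 and phospholipase C gamma assemble. The diacylglycerol made there activates protein kinase C theta (Prkcq), which leads to NF-kB, and the Ras exchange factor Rasgrp1, which leads to the MAP kinases. The cultures were stimulated through CD3 and CD28, the receptors upstream of these proteins.

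The sequences below come from the elements with the smallest p-value of Rasgrp1, Prkcq, Lcp2, Lck and Fyn. The Rasgrp1 stretch belongs to the highest member element, the Prkcq stretch is a whole intronic element, the Lcp2 stretch lies in an upstream group of higher elements, the Lck stretch lies between the gene's groups of start sites, and the Fyn stretch is from a lower promoter element. They are the forward strand of mm10, outside exons of coding transcripts and cut to the 300 bases most covered by matches where the element is longer. Capitals mark matches, on either strand, to the consensus sequences described further on.
Rasgrp1 upstream, chr2:117390048-117390347: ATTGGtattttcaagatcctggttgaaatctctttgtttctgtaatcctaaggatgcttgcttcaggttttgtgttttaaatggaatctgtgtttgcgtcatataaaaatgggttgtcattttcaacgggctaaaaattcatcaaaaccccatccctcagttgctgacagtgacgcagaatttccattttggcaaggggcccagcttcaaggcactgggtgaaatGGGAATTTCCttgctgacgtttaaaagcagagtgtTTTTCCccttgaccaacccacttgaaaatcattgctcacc
Prkcq intron, chr2:11192876-11193025: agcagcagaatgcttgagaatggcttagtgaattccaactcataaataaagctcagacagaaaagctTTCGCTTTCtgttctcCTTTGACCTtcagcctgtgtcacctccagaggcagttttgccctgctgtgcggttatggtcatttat
Lcp2 upstream, chr11:34034139-34034438: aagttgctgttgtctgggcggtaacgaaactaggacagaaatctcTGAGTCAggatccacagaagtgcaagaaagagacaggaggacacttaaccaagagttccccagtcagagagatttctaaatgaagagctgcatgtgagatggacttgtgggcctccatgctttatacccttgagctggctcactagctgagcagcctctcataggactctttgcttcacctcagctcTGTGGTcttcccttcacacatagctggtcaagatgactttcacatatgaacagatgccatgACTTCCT
Lck intron, chr4:129570038-129570337: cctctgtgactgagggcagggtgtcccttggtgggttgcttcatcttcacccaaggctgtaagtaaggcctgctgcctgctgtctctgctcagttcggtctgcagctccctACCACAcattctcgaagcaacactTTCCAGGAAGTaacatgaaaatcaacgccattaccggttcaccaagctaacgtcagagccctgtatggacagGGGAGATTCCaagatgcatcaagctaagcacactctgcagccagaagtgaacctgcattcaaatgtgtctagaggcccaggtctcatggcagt
Fyn promoter, chr10:39369464-39369763: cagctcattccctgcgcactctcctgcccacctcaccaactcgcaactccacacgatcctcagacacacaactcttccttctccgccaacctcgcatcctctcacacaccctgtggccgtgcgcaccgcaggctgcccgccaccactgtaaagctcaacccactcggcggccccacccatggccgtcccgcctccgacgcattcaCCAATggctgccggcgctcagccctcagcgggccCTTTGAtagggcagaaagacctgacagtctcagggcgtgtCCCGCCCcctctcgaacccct

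The capitals in the Rasgrp1 stretch are matches of NFY, NF-kB and NFAT. In the Prkcq stretch they are a match of IRF and overlapping matches of TCF and LEF and of ROR. The Lcp2 stretch holds AP-1, RUNX and ETS matches, the Lck stretch RUNX, overlapping STAT and ETS, and NF-kB matches, and the Fyn promoter stretch NFY, TCF and LEF, and KLF and SP matches.

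Away from promoters the elements of these genes were mostly higher, and at promoters each was lower. Most elements of all genes had the same directions. Of the 27 distal elements, whose centres lay more than 1 kb from the nearest coding start, 23 were higher (85.2%, exact binomial 95% interval 66.3% to 95.8%). Over all distal elements linked to any coding gene within 100 kb, 70.3% were higher. All 5 promoter elements, at Fyn, Lat, Lcp2, Prkcq and Rasgrp1, were lower (0% higher, exact binomial interval up to 52.2%), against a background of 13.3% higher among all promoter elements. Together 23 of the 32 member elements were higher (71.9%, 53.3% to 86.3%), where 45.7% of all linked elements were. The distal and promoter intervals hold the shares over all genes. The interval for all 32 members, of which 27 are distal, does not. The intervals cover counting error only, elements of a gene share a locus, and no test was made over them.

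The values were modest for this table. The higher members ran from 0.53 to 2.79 with a median of 0.95, and 19 of the 23 lay below 1.44, the median of all higher linked elements. A log2 fold change of at least 1 was reached by 10 of the 23, compared with 75.4% of all higher linked elements. The lower members ran from -1.53 to -0.71 with a median of -1.01, and the median of all lower linked elements was -1.33. Over all 32 the median was 0.86 (order-statistic 95% interval 0.53 to 1.06), and over all linked elements it was -0.77.

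**Figure D1:**
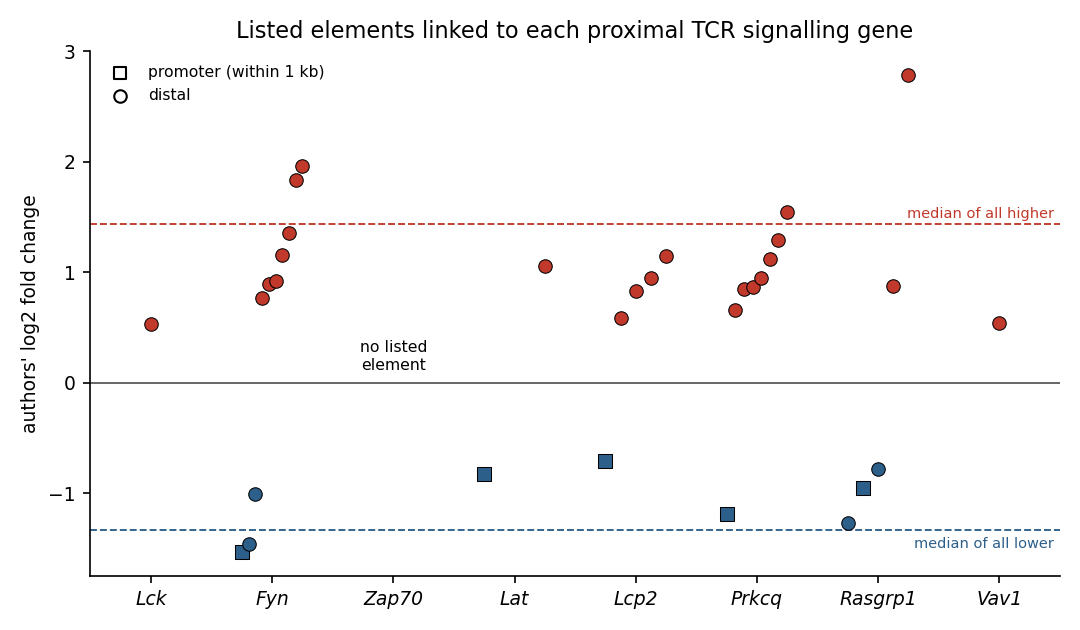
Authors' log2 fold change (y axis) of each of the 32 elements by gene (x axis). Squares are promoter elements and circles distal ones, red is higher and blue lower, and the dashed lines are the medians of all higher (1.44) and all lower (-1.33) linked elements. All 5 squares lie below 0, Rasgrp1 has the highest point at 2.79, and Zap70 has none.

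Fyn had the most elements of the 8 genes, and those inside its body were mostly higher. The gene spans 196527 bp of chromosome 10 and has 8 annotated coding starts. Of its 10 elements 7 were higher, from 0.77 to 1.96, and 3 were lower. As many or more linked elements were found for 0.178% of the 21911 coding genes. The element with the smallest p was the lower one at the 5′ promoter (39369401 to 39370125, 725 bp), with a value of -1.53 (q = 5.63e-09). It covers 3 of the 8 coding starts, and its centre lay 1 bp from one of them.

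The highest Fyn element, at 1.96 (q = 8.07e-08), was an intronic stretch of 825 bp (39455726 to 39456550) centred 1223 bp downstream of an internal coding start. In the second intron of the reference transcript, the one with the longest coding sequence, 4 elements were all higher. They were 0.92 and 0.77 for a pair separated by 2175 bp, and 0.89 and 1.84 for a pair separated by 800 bp. The element of 1.84 is the shortest member, at 100 bp (39436251 to 39436350, q = 9.50e-04). In the third intron the element of 1.96 was followed, 12150 bp on, by a lower one of 975 bp at -1.01 (39468701 to 39469675, q = 8.65e-05) and, further on, by a higher one of 225 bp at 1.16 (q = 0.00342). The element of 1.36 (39520151 to 39520675, q = 5.82e-07) lay in the fifth intron. The element farthest upstream, 76798 bp before the reference start and between genes, was lower at -1.46 (39292626 to 39293375, q = 0.00228). When transcripts of all types are counted, starts of other genes were nearer than Fyn to some of these elements. A start of Gm6963 was nearer to those of 1.84 (11304 bp) and 0.89 (10230 bp), and one of Gm48486 to that of -1.46 (30416 bp).

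Lck had a single element, of 325 bp, in an intron. This gene is known to be transcribed from a proximal promoter, used mainly in thymocytes, and from a distal one used in mature T cells. Its 3 annotated coding starts on chromosome 4 fall into a pair of regions, 15269 bp apart at the extremes. The element (129570026 to 129570350) was centred 3453 bp downstream of the upstream start and 11816 bp before the reference start. Its log2 fold change was 0.53 (q = 0.00773), the lowest value of any higher member, and 0.684% of all higher linked elements had a smaller one. None of the coding starts of Lck was covered by a listed element. Of the 8 listed elements within 100 kb of its reference start, 7 had another gene's coding start nearer, and 3 of these were higher.

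No listed element was linked to Zap70, and none had its centre in its gene body on chromosome 1 (36761798 to 36782818). The listed element nearest to its reference start was centred 39035 bp away. This element (36722426 to 36723100) was higher at 0.65 (q = 0.00125), and its nearest coding start was that of 4933424G06Rik. The table lists elements that passed, so the absence says only that no element at Zap70 did. Of all coding genes, 47.3% had no linked element.

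Lat, the scaffold, had 1 lower and 1 higher element on chromosome 7. The lower one covered all 3 annotated coding starts (126369176 to 126370025, 850 bp) and had a value of -0.83 (q = 7.93e-05). The higher one lay between genes, 28894 bp downstream of the nearest coding start (126340326 to 126340875, 550 bp), at 1.06 (q = 1.24e-07), and a start of Gm30928, 10996 bp from it, was nearer than that of Lat. The value of smallest p at Lat is therefore lower, at -0.83, when starts of all gene types are used for the link or when the link is limited to 20 kb.

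Lcp2, which encodes the adaptor SLP-76, had 4 higher elements upstream and 1 lower element just inside the gene. The 4 higher ones lay on chromosome 11 between 10407 and 36470 bp before the start, all between genes. Nearest to the start was an element of 225 bp at 0.59 (34036401 to 34036625, q = 0.00105). Next came the one with the smallest p, 600 bp at 1.15 (34033976 to 34034575, q = 3.46e-08), 1825 bp farther out. Beyond it were an element of 325 bp at 0.95 (34022776 to 34023100, q = 0.00854) and the longest member, 1300 bp at 0.83 (34009801 to 34011100, q = 4.17e-06). When transcripts of all types are counted, the longest one has a start of Kcnip1, which encodes a potassium channel-interacting protein, at 17298 bp, nearer than that of Lcp2. The lower element was 150 bp in the first intron, 408 bp from a coding start (34047501 to 34047650), at -0.71 (q = 0.00399). No listed element lay elsewhere in the 45376 bp of the Lcp2 body. Counting centres inside the body alone therefore leaves this value of -0.71.

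Vav1, which binds SLP-76, had a single element on chromosome 17, of 900 bp in its first intron (57290376 to 57291275). It was centred 11698 bp downstream of the nearest coding start and had a log2 fold change of 0.54 (q = 0.00124). That is close to the value of Lck and likewise near the bottom of the higher elements, of which 0.972% were smaller. Neither coding start of Vav1 was covered by a listed element.

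Prkcq, for protein kinase C theta, had 8 elements on chromosome 2, of which 7 were higher and only the promoter element was lower. As many or more were linked to 0.534% of coding genes. The promoter element (11172151 to 11172550, 400 bp) was at -1.19 (q = 1.66e-04) and began 43 bp downstream of the reference start. The element of smallest p was 150 bp in the first intron, 20842 bp downstream of the start (11192876 to 11193025), at 1.55 (q = 4.73e-10). A noncoding start, of Gm37520, lay 362 bp from its centre. With starts of all transcripts, with links within 20 kb or with lengths of at least 200 bp, this element drops out and the one of smallest p is at 0.95. Another element ended 75 bp before it and was higher at 0.87 (11192401 to 11192800, q = 3.77e-04). Upstream of the promoter, elements 1958 bp (11169926 to 11170375) and 14170 bp (11157526 to 11158350) from the start were at 0.95 (q = 7.35e-07) and 0.85 (q = 0.00102). Deeper in the gene, elements in the third and the tenth intron were at 1.29 (11233176 to 11233350, q = 0.00289) and 1.12 (11254051 to 11254850, q = 0.00897). The last one lay past the 3′ end, 89008 bp from the nearest coding start, at 0.66 (11315701 to 11316050, q = 0.00290). When transcripts of all types are counted, starts of other genes were also nearer than Prkcq to 0.87, 1.29 and 0.66. These starts lay 712, 5966 and 3998 bp from the elements.

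Rasgrp1, the Ras exchange factor, held the highest element of all members. It was 625 bp between genes on chromosome 2 (117389976 to 117390600), 47287 bp upstream of the start, with a log2 fold change of 2.79 (6.93-fold) and the smallest q of the 32, 1.82e-14. Of all higher linked elements, 89.4% had a smaller value. The other 4 elements were weaker and most were lower. The promoter element of 1275 bp covered all 3 coding starts (117342151 to 117343425) and was at -0.95 (q = 3.10e-06). An intronic element of 175 bp, 10896 bp downstream (117331726 to 117331900), was at -1.27 (q = 1.54e-04). The element 9850 bp upstream (117352676 to 117353025) was higher at 0.88 (q = 0.00365). Near the edge of the 100 kb window, 98074 bp upstream, lay a lower one at -0.78 (117440801 to 117441350, q = 0.00397). A noncoding start, of Gm13982, was nearer to the element of 2.79 (27409 bp) and to that of -0.78 (23378 bp) than the Rasgrp1 start. With links within 20 kb, with starts of all transcripts or with centres inside the gene body, the Rasgrp1 element of smallest p is the promoter one, at -0.95.

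Just outside the window, the nearest excluded elements were those of Rasgrp1 at 115700 bp (0.93, q = 0.00259) and of Prkcq at 128970 bp (2.08, q = 2.56e-05). Both were higher, and the second exceeded every Prkcq element inside the window.

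**Figure D2:**
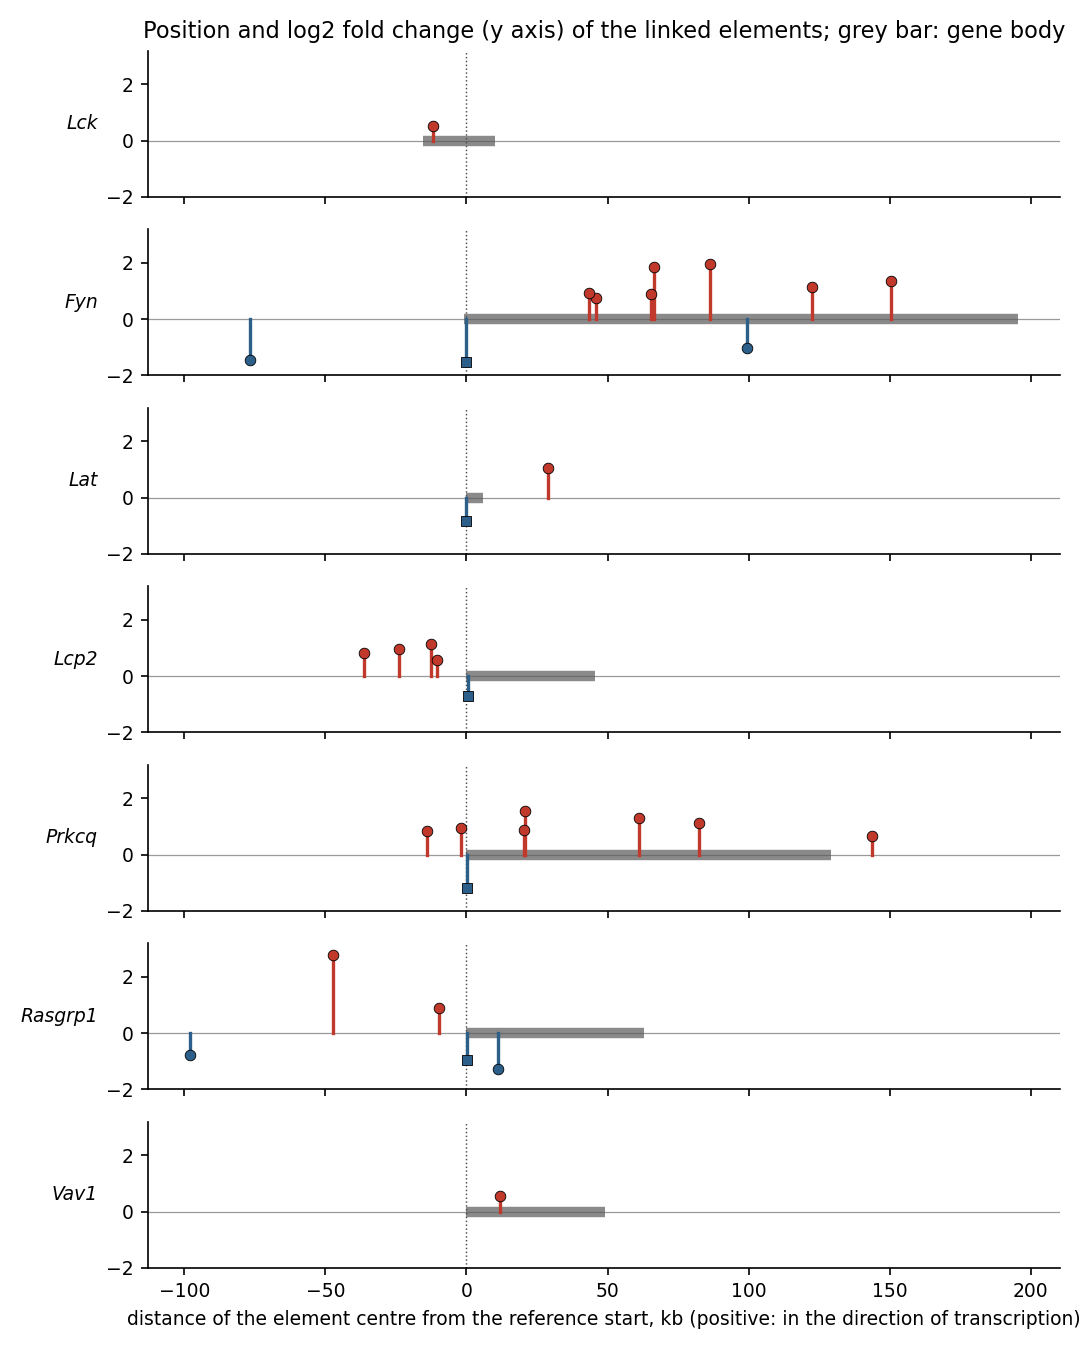
Position of each element centre relative to the reference start of its gene (x axis, kb, positive in the direction of transcription) and its authors' log2 fold change (y axis) for the 7 genes with elements. Grey bars are gene bodies, squares promoter elements, circles distal ones, red higher and blue lower. Higher elements stand inside the bodies of Fyn and Prkcq and upstream of Lcp2 and Rasgrp1, while each square points down.

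Listed elements spanned 9 of the 25 annotated coding starts of the 8 genes (36.0%), which were 3 each at Fyn, Lat and Rasgrp1. Over all genes they spanned 31.1% of 54391 coding starts. Of the 11 RefSeq start windows of these genes, 4 overlapped a listed element (36.4%, beside 26.4% of such windows of all genes), at Fyn, Lat, Prkcq and Rasgrp1. At those starts the element was lower in each case.

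Lower members were richer in GC on the whole, with overlap. The 23 higher elements had a GC content of 40.0% to 53.3%, with a median of 46.3%. The 4 distal lower elements, at Fyn and Rasgrp1, had a median of 50.7% and reached 56.0%, so their range met that of the higher ones. The promoter elements of Lat, Rasgrp1, Prkcq and Fyn had 63.6%, 62.8%, 70.0% and 70.2%. The promoter element of Lcp2 was the exception, at 48.7% GC. In its GC decile 71.1% of the 121 promoter elements of all genes were higher, whereas it was lower. At Fyn and Prkcq, by contrast, 0.831% of the 2167 promoter elements in the same decile were higher. When each member was given the share of higher elements in its own class and GC decile, the mean of these shares was 68.7% over all 32 and 78.2% over the 27 distal ones, next to the 71.9% and 85.2% measured.

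Other features were unremarkable. Repeat-masked bases made up at most 27.4% of any member. None of the 32 had a second place on the chromosomes with at least 95% identity over 90% of its length, and each aligned to its own position. By location, 13 of 15 distal elements in introns and 10 of 12 between genes were higher, compared with 72.2% and 72.0% over all genes. Within 20 kb of a start 15 of 17 distal members were higher, beside 65.1% of all distal linked elements, and farther out 8 of 10, beside 76.4%.

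**Figure D3:**
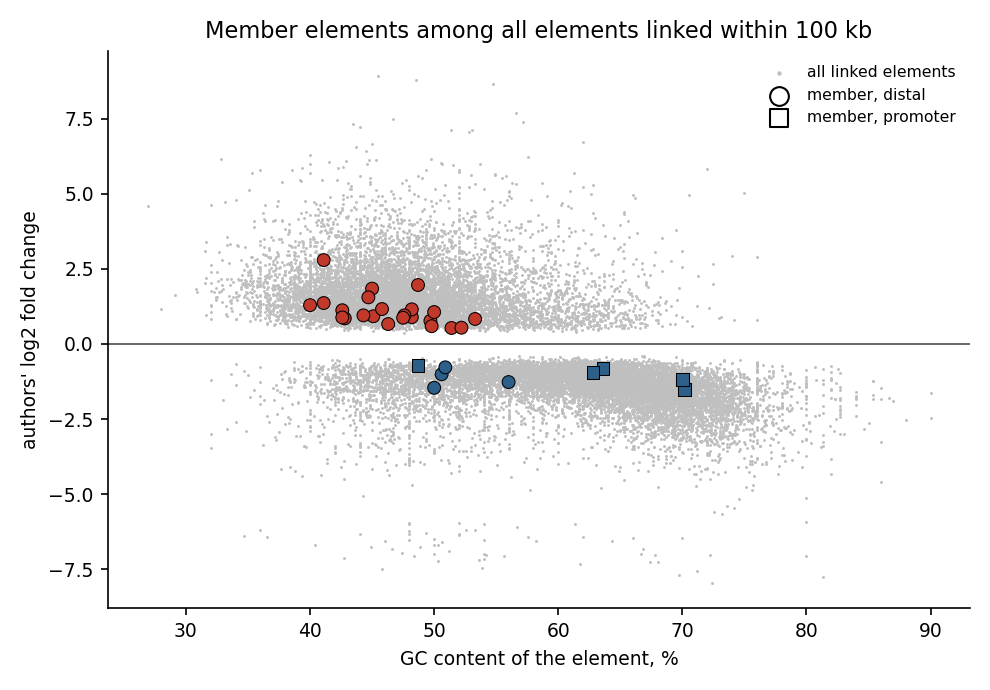
GC content (x axis, %) and authors' log2 fold change (y axis) of all elements linked within 100 kb (grey) and of the 32 members (circles distal, squares promoter, red higher, blue lower). Red circles lie between 40.0% and 53.3% GC, and 4 of the 5 squares lie above 60%, with that of Lcp2 at 48.7%.

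Consensus sequences of transcription factors active in T cells were searched in every element on both strands. The letters searched were TGANTCA for AP-1, TGTGGT for RUNX, AGGAAGT for ETS, GGAAAA for NFAT, TTCNNNGAA for STAT, GAAANNGAA for IRF, CAGCTG for the E-box, AGATAA for the GATA family, CTTTGA for TCF and LEF, AGGTCA for ROR, CCAAT for NFY, GGGCGGG for KLF and SP, TGACGTCA for the cyclic AMP response element (CRE), GCGTGGGCG for EGR and GCGCATGCG for NRF1. NF-kB and CTCF were searched with degenerate sequences. Matches can overlap, and a match is a description of letters, not of binding.

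AP-1 matches, frequent in elements that were higher over the whole table, were about as common in the distal members as elsewhere. They were found in 11 of 27 distal members (40.7%), next to 44.1% of all distal linked elements, 54.1% of the higher ones and 20.5% of the lower ones. Of the 11, 10 were higher (90.9%), beside 86.2% of all distal linked elements with an AP-1 match. The 4 members with the largest values had none. These were the Rasgrp1 element of 2.79, the Fyn elements of 1.96 and 1.84 and the Prkcq element of 1.55. Those of 1.84 and 1.55 are 100 and 150 bp long, which leaves fewer places for a match. Both are shorter than the labelled size range of 200 to 400, so tested fragments can hold letters beyond them that were not counted. The Prkcq element of 0.87, which ended 75 bp before that of 1.55, held 1 AP-1 match. The median of higher distal members was 0.85 with an AP-1 match and 1.06 without, and over all higher distal linked elements it was 1.37 and 1.59. The Fyn element of 0.89 held 3 matches, and 42.6% of elements of like length (within 20%) held at least 1.

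The elements with the largest values held other matches. The Rasgrp1 element printed above had 1 NF-kB match, found in 15.4% of elements of like length, and 2 NFAT matches (36.9%). The Prkcq element of 1.55 and the Fyn element of 1.84 each had 1 IRF match, which 12.1% and 3.77% of elements of like length held. IRF matches occurred in 6 of 27 distal members (22.2%, beside 20.1% of all distal linked elements), at Fyn, Prkcq and Rasgrp1. All 6 were higher, where 85.2% of the 27 distal members and 70.3% of all distal linked elements were. The share of higher elements among all those with an IRF match is not given here. Over all genes, 23.8% of higher and 11.3% of lower distal elements held an IRF match. The Lck element combined RUNX (28.0% of like length), ETS (12.5%), STAT (14.1%) and NF-kB (9.58%) matches. RUNX matches were found in 12 of 27 distal members (44.4%, against 37.9%), ETS in 6 (22.2%, against 18.3%), NF-kB in 6 (22.2%, against 12.6%) and GATA in 1 (3.70%, against 16.7%). E-box matches were found in 10 (37.0%, against 26.2%), ROR in 10 (37.0%, against 30.5%), STAT in 7 (25.9%, against 19.5%) and NFAT in 8 (29.6%, against 31.8%). Of the 7 members with an NF-kB match, promoter elements included, 4 were higher and 3 lower. CTCF, CRE, EGR and NRF1 had no match in any of the 32. No test was made, and with 27 elements 1 match more or less moves a share by several percentage points.

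**Figure D4:**
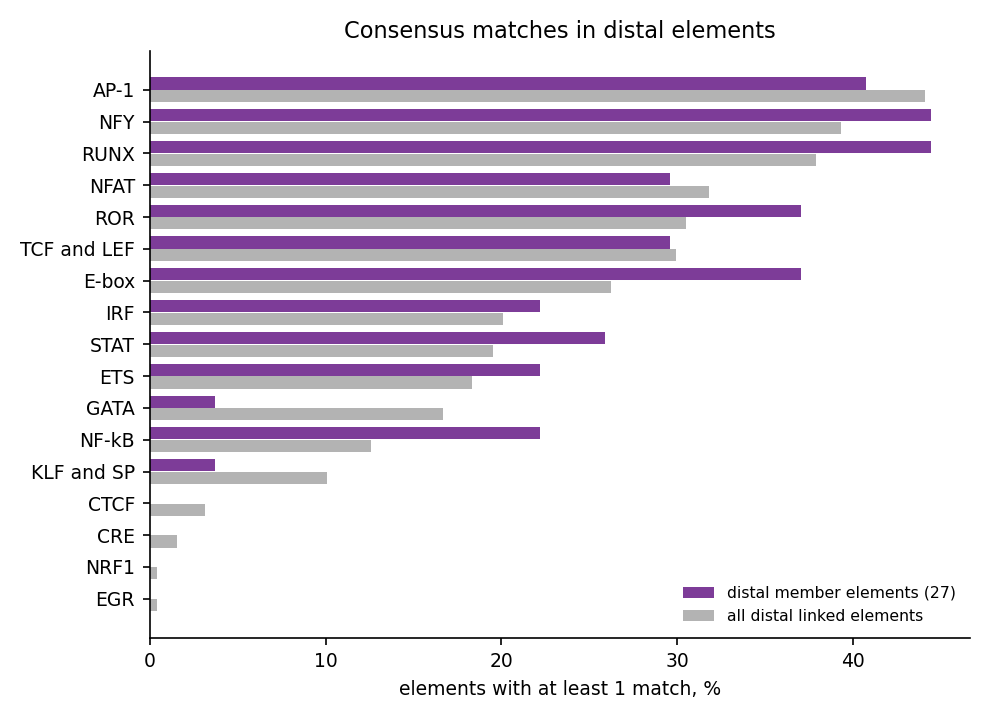
Percent of distal elements with at least 1 match (x axis) for each of the 17 consensus sequences (y axis), for the 27 distal members (purple) and all distal linked elements (grey). AP-1 stands at 40.7% and 44.1%, NF-kB at 22.2% and 12.6%, and the E-box at 37.0% and 26.2%.

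The wider TCR pathway had mostly lower promoter elements, and its distal elements were more often higher than lower, as over all genes. Of 52 other pathway genes 43 had at least 1 linked element, and 60 of their 126 elements were higher (47.6%, beside 45.7% of all linked elements), with a median log2 fold change of -0.66. Distal elements were higher in 55 of 90 cases (61.1%, beside 70.3%) and promoter elements in 5 of 36 (13.9%, beside 13.3%). The difference between the 8 genes and the rest of the pathway was not tested.

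By role, receptor genes had 4 higher elements of 5. Coreceptors and upstream control genes had 6 of 20, adaptors 13 of 24, kinases 8 of 15, effectors 10 of 22 and negative regulators 19 of 40. Of all linked elements, 45.7% were higher, and the roles differ in their mix of promoter and distal elements. Among distal elements alone the shares were 66.7%, 42.9%, 66.7%, 63.6%, 69.2% and 61.3% in this order, beside 70.3% over all genes. Differences between roles were not tested. The 5 higher promoter elements belonged to Cd3e (0.89, q = 7.13e-06) and Cd3d (0.95, q = 1.28e-05), which encode CD3 chains that Lck phosphorylates, and to Fyb, Tec and Rac2. They were named after their values were seen.

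Over the 43 genes of this list with an element, the element of smallest p was higher for 25 and lower for 18. No share over all coding genes is at hand for this count or the next, so neither shows a trait of the pathway. For the 8 genes with the smallest p of all, the element of smallest p was higher in each case. They were the Tec-family kinase genes Txk (2.45, 12876 bp from the start, q = 2.04e-16) and Tec (2.15, 64 bp, q = 1.41e-13), and the receptor phosphatase genes Ptprj (1.65, q = 4.13e-14) and Ptprc, which encodes CD45 (1.88, q = 2.25e-13). The others were the adaptor genes Fyb (2.01, q = 4.66e-14) and Sla (1.84, q = 5.56e-13), the ubiquitin ligase gene Cblb (2.11, q = 8.91e-14) and Cd5, for an inhibitory surface receptor (2.10, q = 1.47e-13). No element was linked to Cd3g, Cd4, Cd8a, Cd8b1, Lax1, Sit1, Dgka, Dok1 or Cd6.

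**Figure D5:**
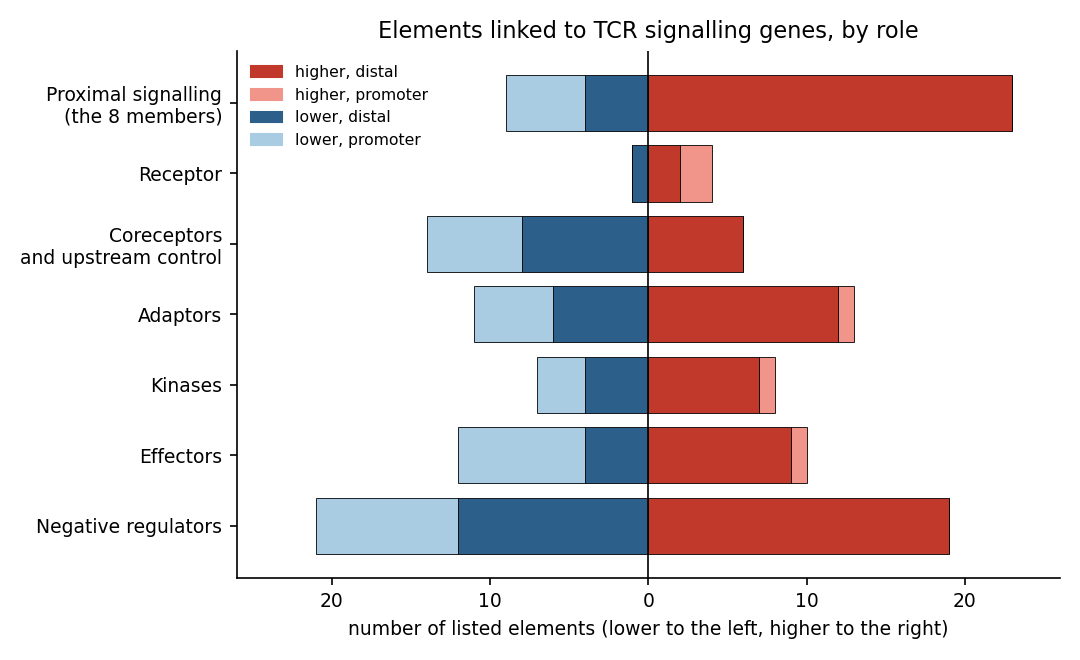
Number of listed elements (x axis, higher to the right and lower to the left) for the 8 members and for 6 groups of other TCR signalling genes (y axis). Dark parts are distal and light parts promoter elements. The members have 23 elements on the right, all distal, and 9 on the left.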

How the data were processed

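STARR-seq was measured in 4 replicates, and 1 table of elements on mm10 was used. Per the deposited notes it derives from the alignments of all 4 replicates. It holds the authors' log2 fold change, p-value and q-value (deposited on a linear scale) and, as another value, the length of each element. The aligner, caller and normalization were not given in the sources used here, and the direction of the fold change is unstated. Elements that did not pass are not in the table, so shares of higher elements are shares among those that passed.

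Starts count from 1: every length equals end minus start plus 1. The 24217 elements on chromosomes were annotated with GENCODE M21 and the GRCm38 sequence (samtools 1.23.1, pysam 0.24.0), whose chromosome lengths fit the elements. The 15 on other contigs were left out. Copies were sought with blastn 2.17.0. The motif search and the order-statistic interval of the median were tested on simulated data, the interval with independent normal values. The exact binomial intervals were not tested in this way. Location was that of the element's centre over coding transcripts. GC deciles were cut over all elements on chromosomes.

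The members, gene lists and consensus sequences were chosen with earlier results of these data known. All 8 members were named. Other pathway genes and paralogs were named by the 8 smallest p-values of their strongest element, or because they had no element. Cd3e, Cd3d and Rac2 were the exceptions, named for their higher promoter elements after the values were seen. Alternatives changed the link distance, start sites, linking point, q, size, length, copies, promoter distance and genes.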

Additional observations from a re-analysis of the deposited data

How the results depend on the processing

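The directions of the main shares held under each alternative that could be run, and several strongest elements depended on how elements were linked or filtered. Over 17 alternatives the share of higher members lay between 63.6% and 77.8%. Over 19, the distal share lay between 76.9% and 91.7% and the promoter share between 0% and 28.6%, the last with promoters taken within 2 kb. The number of elements was 19 with centres inside the gene body, 17 with a q under 0.001 and 15 with log2 fold changes of size 1 or more, and the median of these 15 was 1.15. Of the strongest elements, meaning the one of smallest p for each gene, 6 of 7 were higher, and 3 of 6 with centres inside the gene body. No share over all coding genes is at hand for these counts. The strongest value turned to -0.83 for Lat and to -0.95 for Rasgrp1 with links within 20 kb and with starts of all transcripts. For elements inside the gene body it was -0.95 for Rasgrp1 and -0.71 for Lcp2. For Prkcq it moved from 1.55 to 0.95 with links within 20 kb, with starts of all transcripts and with lengths of at least 200 bp. Each of these settings leaves the stronger element out. No member had a copy, so that alternative changed nothing. Leaving out replicates was not run, since the table combines them. No paired analysis was possible because there is 1 group. Depth is unknown, so what it limits cannot be given.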

Other observations

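Paralogs of the 8 genes, several of which act in other blood cells, had lower promoter elements and mostly higher distal ones. Most elements of all genes had these directions. Of 18 paralogs 16 had a linked element, and 15 of their 35 elements were higher (42.9%, beside 45.7% of all linked elements). None of the 14 promoter elements was higher (beside 13.3% of all promoter elements), and 15 of the 21 distal ones were (71.4%, beside 70.3%). Syk, the paralog of Zap70 best known from B cells and myeloid cells, had 1 element, between genes and 62648 bp from its start, at 2.05 (q = 4.94e-12), whereas Zap70 had none.

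Rasgrp3, a Ras exchange factor known from B cells, had 1 intronic element at 2.04 (q = 2.25e-14). Clnk, a relative of Lcp2, had 1 at 2.04 (q = 1.62e-11) and Src had its strongest at 1.82 (q = 2.32e-11). Prkch, another protein kinase C gene, had 7 elements, of which 3 were higher, led by one at 2.35 (q = 4.75e-12). The strongest elements of Prkce (-2.40, q = 1.88e-09), Yes1 (-1.85, q = 2.07e-09) and Vav2 (-1.93, q = 4.14e-09) were lower and lay within 76 bp of a start. Fgr and Rasgrp4 had no linked element. No difference between the paralogs and the 8 genes was tested.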
